A study of Mus musculus with 6 samples.

Results

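The genes described here clear stray nucleic acid from cells or relay its presence. They are Trex1, Samhd1, the RNase H2 subunit genes Rnaseh2a, Rnaseh2b and Rnaseh2c, the DNases Dnase1 and Dnase2a, and Tmem173, which encodes the adaptor STING. They were taken by name from the authors' deposited table, and all 8 of 8 were present among its 55446 listed genes and its 15762 tested genes. No member carried the status for excess data, so none was left out. The samples were ileal crypts, the epithelial pits of the distal small intestine. The control mice were Adar fl/fl, with both Adar alleles floxed and no Cre (3 libraries). The other mice, Adar iΔgut, carried the same alleles and VilCreERt2, a tamoxifen-activated Cre driven by the villin promoter of the intestinal epithelium (3 libraries). All mice had tamoxifen, and the labels give day 3. Cells that do not use villin, such as leukocytes and stroma, keep Adar in this model.

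Cells carry enzymes that destroy DNA and RNA in places where they do not belong. DNA in the cytosol is bound by cGAS, which makes the messenger cyclic GMP-AMP. This messenger binds STING at the endoplasmic reticulum, and STING then recruits the kinase TBK1, which activates the transcription factor IRF3 and type I interferon transcription. In people, inherited loss of TREX1, SAMHD1 or an RNase H2 subunit causes Aicardi-Goutières syndrome, an interferonopathy, as does loss of ADAR, whose double-stranded RNA ligands are read by MDA5 rather than by cGAS.

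Each gene has 1 FPKM value (sequenced fragments scaled for transcript length and library size) for a condition named con and another for a condition named TMX in the deposit. These are the authors' pooled values, so no value per library, standard deviation or depth stands behind them, and differences are judged by the authors' own q-value, called under 0.05. The table gives no genotype, so TMX was taken by elimination to be the Cre-carrying mice and con the mice without Cre. Adar itself was at 19.5 FPKM for con against 52.0 FPKM for TMX by the authors' deposited table, at q = 0.0575. That direction goes against the reading, though Adar was not called. One value for the whole gene also does not show whether part of it was lost. Of 12 tested transcripts of the STING and interferon routes, 9 were called higher in TMX and 1 lower, as given below. The labels were not tested further, so each direction below is stated for the condition labelled TMX. As a check of the labelled tissue, markers of Paneth cells, the secretory cells of the crypt base, summed to 39060 FPKM for con against 25386 FPKM for TMX by the authors' deposited table, with none of 12 at 0. The stem cell gene Olfm4 was at 277 FPKM for con against 18.2 FPKM for TMX at q = 0.00112 by the authors' deposited table. Enterocyte markers, whose values follow, were abundant as well.

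Of the 8 genes, Dnase1 fell, Dnase2a rose and 6 were not called by the authors' deposited table. The calls thus took in 1 of 8 higher and 1 of 8 lower, where the authors called 6.60% of all tested genes higher and 5.70% lower, or 12.3% in either direction. Nothing particular to the 8 genes is read from a count of 2 among 8. At an unadjusted p under 0.05 by the authors' deposited table, Dnase2a, Trex1 and Tmem173 were higher and Dnase1 was lower. No share of all tested genes was taken at this looser cut. The shares above do not apply to it, and nothing is read from it. The median log2 fold change was 0.18 over the 8 genes and 0.05 over all tested genes.

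**Figure D1:**
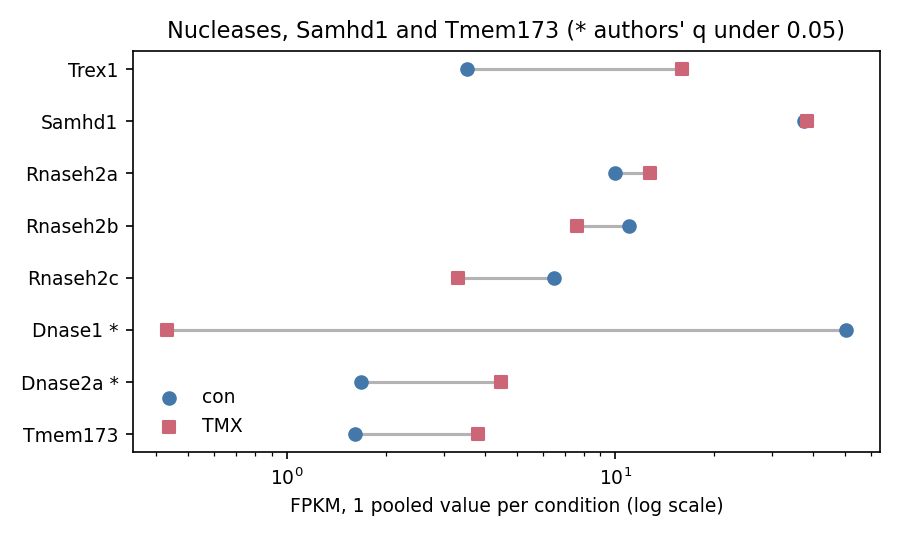
FPKM (log axis) of the 8 genes in con (circles) and TMX (squares), 1 pooled value per condition by the authors' deposited table, with no error available. Dnase1 drops from 50.3 to 0.431 FPKM, Trex1, Dnase2a and Tmem173 lie higher in TMX, of which Dnase2a alone was called, and the Samhd1 symbols lie on each other at 37.4 against 38.3 FPKM.

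Dnase1 encodes a secreted endonuclease that digests extracellular DNA, including the DNA of dead cells and of food. It was the highest of the 8 genes in con, at 50.3 FPKM, and the lowest in TMX, at 0.431 FPKM, by the authors' deposited table. The plain ratio of these values is 117-fold lower in TMX, and the log2 fold change of the authors' deposited table, which adds 1 to each value, was -5.16 at q = 0.00200. In con it lay above 90.5% of the tested genes, and in TMX above 2.87% of them. Its fold change was the 8th lowest of the 15762 tested genes.

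Dnase1 (ENSMUSG00000005980.15) lies on GRCm38 chromosome 16, 4036942 to 4040024, on the plus strand. The RefSeq promoter table for GRCm38.p6 gives 2 windows for it, each of 300 bases with 250 before a start and 50 after it. The stretch shown is the part of the first window, chr16:4036786-4036941 on the plus strand, that lies ahead of the outermost annotated start. It is shown because this is the member with the largest change, and the 6 bases in capitals hold a TATAA match on each strand, overlapping each other and beginning 15 bases before that start. This start is that of the GENCODE annotation and lies ahead of the starts from which both RefSeq windows were drawn, so the match is farther from those.
Dnase1: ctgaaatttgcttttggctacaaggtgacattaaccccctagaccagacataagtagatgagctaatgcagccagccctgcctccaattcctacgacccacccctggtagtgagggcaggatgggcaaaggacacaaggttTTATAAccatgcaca
This motif was added after the sequence had been seen, and 24.9% of the 32851 RefSeq windows hold it on either strand.

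The fall of Dnase1 stood beside falls among enterocyte markers and among some markers of Paneth, goblet and stem cells. Of 16 tested enterocyte markers, 8 fell and none rose by the authors' deposited table, and their sum went from 24675 to 7145 FPKM with none at 0 in either condition. The median log2 fold change of the list was -1.99, beside -5.16 for Dnase1. The 3 largest falls among the called markers were those of Enpp7, Mep1a and Lct. Enpp7, an intestinal sphingomyelinase, fell from 139 to 3.16 FPKM by the authors' deposited table, Mep1a, a brush border metalloprotease subunit, from 123 to 3.43 FPKM, and Lct, the lactase gene, from 21.4 to 0.479 FPKM, each at q = 0.00112. The smallest change was that of Slc10a2, a bile acid transporter gene, at 187 against 119 FPKM and q = 0.408 by the authors' deposited table. Of 12 Paneth cell markers, 3 fell (Ang4, Itln1 and Guca2b) and 1 rose, Lyz2, which is also on the myeloid list, by the authors' deposited table. The other 8 Paneth cell markers were not called, among them every listed alpha-defensin gene and Lyz1. Lyz1 was at 4656 FPKM for con against 3235 FPKM for TMX at q = 0.903 by the authors' deposited table. Of 8 goblet cell markers, Clca1 and Tff3 fell and none rose by the authors' deposited table, the sum going from 19767 to 9793 FPKM. Of 8 stem cell markers, Olfm4 and Slc12a2 fell and none rose by the authors' deposited table, the sum going from 386 to 86.4 FPKM. Most of that sum in con was Olfm4, at 277 FPKM for con against 18.2 FPKM for TMX. The other 6 stem cell markers were not called, and 2 of them had a log2 fold change above 0 by the authors' deposited table. The part of any of these cell types in the Dnase1 value was not tested, and in bulk crypts fewer cells of a type and less RNA per cell cannot be told apart.

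The tested genes with the con and TMX levels nearest to those of Dnase1, by distance over log2(FPKM + 1) in the 2 conditions, were Plb1, Gm25935 and Gsdmc3. Plb1, a phospholipase of the brush border, was at 62.0 FPKM for con against 0.803 FPKM for TMX at q = 0.00112 by the authors' deposited table. Gsdmc3, a gasdermin gene, was at 44.2 against 0.0174 FPKM but at q = 0.564, and the small nuclear RNA gene Gm25935 was at 48.4 FPKM and listed at 0 in TMX at q = 0.253, by the authors' deposited table. Levels as far apart as those of Dnase1 thus carried a call in some genes and not in others.

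**Figure D2:**
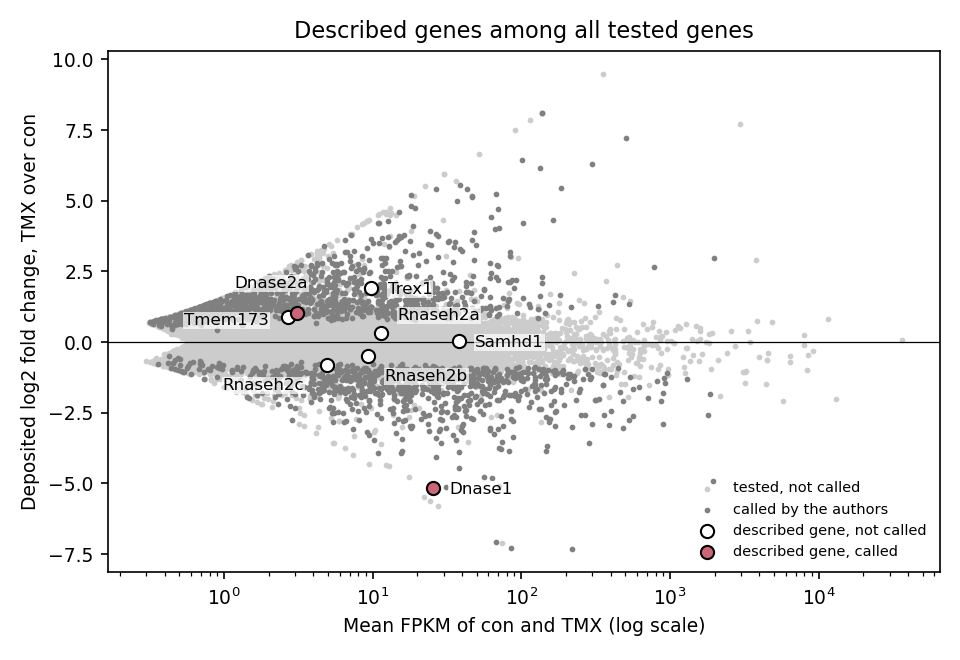
Deposited log2 fold change of TMX over con (log2 scale with 1 added to each FPKM) against mean FPKM (log axis) for the 15762 tested genes, in light grey where not called and dark grey where called, with the 8 described genes in large symbols (filled where called). Dnase1 lies at -5.16 near the lower edge, and the other 7 genes lie between -0.80 and 1.91.

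Dnase2a encodes the acid DNase of lysosomes, which digests the DNA of engulfed cells. It rose from 1.68 FPKM in con to 4.49 FPKM in TMX by the authors' deposited table, with a deposited log2 change of 1.04 at q = 0.0317. The plain ratio is 2.68-fold higher in TMX. The call is lost, with an adjusted p of 0.111, when the authors' p-values are adjusted over every listed gene with untested genes at a p of 1. The nearest tested genes by level were Scg2, a granule protein gene of endocrine cells, at 1.71 against 4.44 FPKM at q = 0.0260, Dtx3, at 1.56 against 4.47 FPKM at q = 0.498, and Acer2, a ceramidase gene, at 1.67 against 4.74 FPKM at q = 0.0682, all by the authors' deposited table.

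Myeloid cells, which engulf dying cells, had higher markers in TMX. Of 12 tested myeloid markers, 6 rose and none fell by the authors' deposited table, and their median log2 fold change was 1.82, with none at 0. Their sum went from 27.8 to 381 FPKM, but genes that were not called carry much of it. S100a8 and S100a9, made by neutrophils, were at 104 and 72.1 FPKM in TMX at q = 0.547 and 0.553, and the leukocyte gene Ptprc was at 16.6 FPKM for con against 12.9 FPKM for TMX at q = 0.649, by the authors' deposited table. Lyz2 rose from 4.20 to 135 FPKM, the Fc receptor gene Fcgr3 from 0.224 to 21.9 FPKM and Cd14 from 1.47 to 8.96 FPKM, each at q = 0.00112 by the authors' deposited table. Of 10 tested markers of stroma, muscle and endothelium, 6 rose and none fell by the authors' deposited table, led by Col3a1, Dcn and Col1a2, with a sum of 14.7 FPKM for con against 166 FPKM for TMX and none of 12 at 0. T and NK markers went the other way, with 5 of 11 tested lower and none higher by the authors' deposited table, among them Gzmb, Gzma and Cd3g, and a sum of 342 and 57.6 FPKM. Most of that sum was Gzma, at 270 FPKM for con against 40.4 FPKM for TMX by the authors' deposited table. Of 8 tested tuft and enteroendocrine markers, the enteroendocrine genes Tph1, Cck and Chgb rose, while the tuft genes Dclk1 and Trpm5 were not called, with log2 fold changes of -0.47 and -0.28, and of 8 tested B and plasma cell markers Igkc rose, with none lower in either list by the authors' deposited table. The part of these cells in the values of Dnase2a, Trex1 and Tmem173 was not tested.

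Dnase2a (ENSMUSG00000003812.13) lies on GRCm38 chromosome 8, 84908560 to 84922915, on the plus strand. Its RefSeq window holds no TATAA match and 1 GC box (GGGCGG), a motif found on either strand in 35.7% of the windows. The 30 bases around it, chr8:84908563-84908592 on the plus strand of GRCm38.p6, are shown with the box in capitals because this is the other called gene. They lie ahead of the RefSeq start but just inside the GENCODE gene, unlike the Dnase1 stretch.
Dnase2a: agcgggaggacgGGGCGGggaggacattgg
Both windows of Dnase1 held 2 TATAA matches and no GC box. GC content was 61.7% in the Dnase2a window and 51.0% and 52.7% in the Dnase1 windows, with a median of 52.7% over all windows.

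Trex1 encodes the main exonuclease of cytosolic DNA, anchored at the endoplasmic reticulum. It was at 3.53 FPKM for con against 15.97 FPKM for TMX by the authors' deposited table, a plain ratio of 4.53. The log2 fold change of 1.91 was the largest of the 5 that lay above 0 among the 8 genes, but it was not called, at p = 0.0117 and q = 0.0806 by the authors' deposited table. It would be called at a q under 0.1. Trex1 (ENSMUSG00000049734.9, chromosome 9, 109057933 to 109059734, minus strand) has 1147 exonic bases, and 100% of them are also exonic in Atrip, the gene of the partner of the ATR kinase, on the same strand. Atrip was at 3.73 FPKM for con against 5.87 FPKM for TMX at q = 0.713 by the authors' deposited table. The sources used here do not say how fragments in the shared exons were divided between the 2 genes, so the level of each is uncertain.

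Samhd1 encodes a hydrolase that lowers the cell's pool of deoxynucleotides and acts at stalled replication forks. It was at 37.4 FPKM for con against 38.3 FPKM for TMX by the authors' deposited table, a log2 fold change of 0.03 at q = 0.982. It was the second most abundant of the 8 genes in con and the most abundant in TMX, and no interval can be put on the difference because the table has no replicate values. Its locus (ENSMUSG00000027639.16, chromosome 2, 157097533 to 157135265, minus strand) held no other gene. The part of its RefSeq window ahead of the annotated start, chr2:157135266-157135346 on the minus strand of GRCm38.p6, is shown as the stretch of a gene with near-equal levels. Capitals mark first a match to the core of a gamma-activated site (TTCNNNGAA) and then a GC box.
Samhd1: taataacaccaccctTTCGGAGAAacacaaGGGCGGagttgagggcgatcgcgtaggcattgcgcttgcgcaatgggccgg
The gamma-activated site core is held by 8.30% of all windows on either strand. RefSeq windows were found for 6 of the 8 genes, and none of the 8 windows of these 6 held the core of an interferon-stimulated response element, GAAA and GAAA parted by any 2 bases, which 3.44% of all windows hold on either strand. A window of this length says nothing about sites elsewhere.

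RNase H2 cuts RNA that is paired with DNA and removes single ribonucleotides from genomic DNA, with Rnaseh2a encoding the catalytic subunit and Rnaseh2b and Rnaseh2c its other subunits. Rnaseh2a (ENSMUSG00000052926.16) lies on chromosome 8, 84956610 to 84969767, minus strand, Rnaseh2b (ENSMUSG00000021932.13) on chromosome 14, 62292589 to 62372992, plus strand, and Rnaseh2c (ENSMUSG00000024925.11) on chromosome 19, 5601873 to 5607019, plus strand. Rnaseh2a was at 9.96 FPKM for con against 12.8 FPKM for TMX at q = 0.895 by the authors' deposited table. Rnaseh2b was at 11.0 against 7.62 FPKM at q = 0.460 by the authors' deposited table. Rnaseh2c was at 6.51 against 3.32 FPKM at q = 0.730 by the authors' deposited table. None of the subunits was called, and their deposited log2 fold changes were 0.33, -0.48 and -0.80. On the per-length FPKM scale the highest subunit was 1.69 times the lowest in con and 3.85 times the lowest in TMX, a spread that was not tested. The order of the subunits also differed, with Rnaseh2b highest in con and Rnaseh2a highest in TMX. The 3 genes summed to 27.5 FPKM for con against 23.7 FPKM for TMX.

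Tmem173, the STING gene (ENSMUSG00000024349.10, chromosome 18, 35733679 to 35740554, minus strand), was low in both conditions. It was at 1.61 FPKM in con, the lowest of the 8 genes, and 3.82 FPKM in TMX by the authors' deposited table, with a log2 fold change of 0.89, p = 0.0404 and q = 0.190. It lay above 26.0% of the tested genes in con and 39.7% in TMX. Its locus, like that of Samhd1, held no other gene. Beside it, 6 of 12 myeloid and 6 of 10 stromal markers were called higher in TMX by the authors' deposited table, as given above. Of 11 tested T and NK markers, 5 were called lower and none higher. The part of any of these cells in the Tmem173 value was not tested.

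For the other 6 genes the deposited locus was wider than the gene and took in neighbours. Outside Trex1 and part of the Rnaseh2a overlap, the shared exonic bases belong to genes on the other strand. Dnase1 shares 558 of its 3083 exonic bases (18.1%) with other genes, Trap1 and Gm15879, both on the other strand. Trap1, a mitochondrial chaperone gene, was at 17.6 against 17.9 FPKM and Gm15879 at 1.40 against 1.29 FPKM by the authors' deposited table, with q-values of 0.986 and 0.982. Neither was called. Dnase2a shares 29.99% of its exonic bases with Mast1, which was listed at 0 in con and 0.0269 FPKM in TMX by the authors' deposited table and not tested. Rnaseh2c shares 24.8% with Kat5, an acetyltransferase gene at 16.3 against 18.9 FPKM at q = 0.861, by the authors' deposited table. Rnaseh2a shares 9.66% with Gm49661 on the same strand, which was at 0.00736 against 0.120 FPKM by the authors' deposited table and not tested. It shares a further 5.04% with the peroxiredoxin gene Prdx2 on the other strand, at 311 against 204 FPKM and q = 0.341 by the authors' deposited table. The share was 1.06% for Rnaseh2b, with Dleu7. The sources used here do not state whether reads kept their strand, so it is unknown whether fragments of these other-strand overlaps had to be divided.

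**Figure D3:**
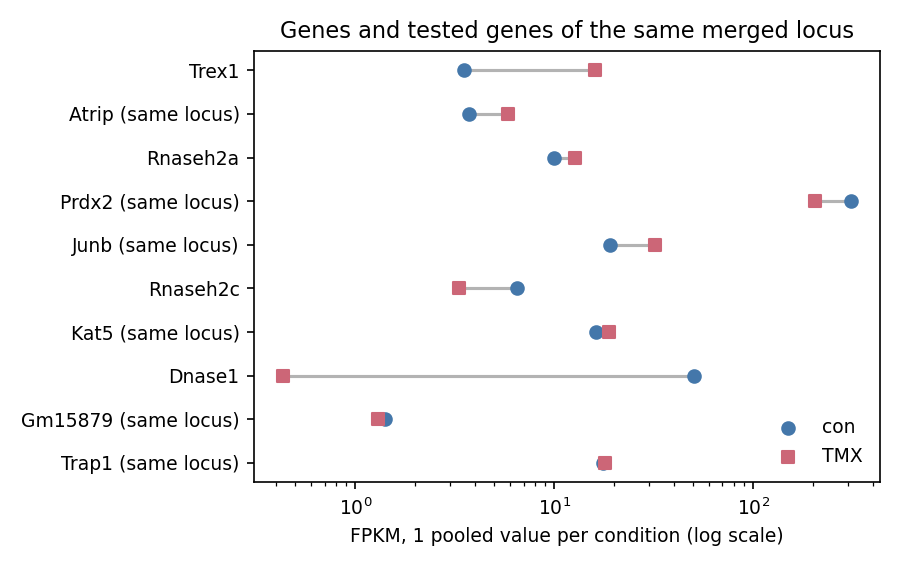
FPKM (log axis) in con (circles) and TMX (squares) of Trex1, Rnaseh2a, Rnaseh2c and Dnase1, each followed by the tested genes of the same merged locus, 1 pooled value per condition by the authors' deposited table. Dnase1 falls from 50.3 to 0.431 FPKM while Trap1 lies at 17.6 against 17.9 FPKM, and Atrip moves less than Trex1.

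The other genes around cGAS and STING were called about as often as all tested genes. Of 28 tested genes of the cGAS-STING relay, 2 rose and 2 fell by the authors' deposited table, 7.14% in each direction beside 6.60% and 5.70% of all tested genes, and the median log2 fold change was -0.04 beside 0.05 for all tested genes. Trim30a, a ubiquitin ligase gene, rose from 5.22 to 49.7 FPKM and Usp18, the protease that removes ISG15 from proteins, from 18.0 to 121 FPKM, both at q = 0.00112 by the authors' deposited table. The ubiquitin ligase genes Rnf5, whose product in human cells marks STING for destruction, and Rnf115 fell from 15.2 to 4.22 FPKM and from 22.3 to 10.5 FPKM, with q-values of 0.00112 and 0.00613 by the authors' deposited table. The core genes of the relay were not called. Cgas was at 2.75 against 5.70 FPKM at q = 0.0589 by the authors' deposited table. Tbk1 was at 113 against 109 FPKM at q = 0.981, and Irf3 at 40.6 against 41.5 FPKM at q = 0.984, by the authors' deposited table. Enpp1, which hydrolyses cyclic GMP-AMP outside cells, was at 0.968 against 2.31 FPKM at q = 0.0944 by the authors' deposited table. STING and its upstream enzyme were thus far below the kinase and the transcription factor on the per-length scale in both conditions.

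Transcripts that STING signalling can raise, most of which interferon and RNA sensors raise as well, were higher in TMX. Of 12 tested, 9 rose (75%) and 1 fell (8.33%) by the authors' deposited table, beside 6.60% and 5.70% of all tested genes. The median log2 fold change of the 12 was 2.69. The antiviral genes Mx1, Ifit3 and Rsad2 rose from 7.13 to 134 FPKM, from 6.90 to 126 FPKM and from 5.13 to 90.9 FPKM, each at q = 0.00112 by the authors' deposited table. The chemokine gene Ccl5 fell from 24.1 to 4.88 FPKM at q = 0.00200 by the authors' deposited table, beside the lower markers of T and NK cells, which make it, and the part of those cells in its value was not tested. Ifnb1, an interferon gene downstream of STING, was listed at 0 in both conditions by the authors' deposited table. The other listed interferon genes, Ifna4, Ifnl2 and Ifnl3, were at 0 in con. In TMX they were at 0.0550, 0.460 and 0.346 FPKM by the authors' deposited table. None of these interferon genes was tested. The transcripts of this list do not tell the DNA and RNA routes to interferon apart.

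Other DNases showed no call. Of 14 tested, none rose or fell by the authors' q-value, where 12.3% of all tested genes were called in either direction. At an unadjusted p under 0.05 by the authors' deposited table, Exo1, an exonuclease of DNA repair, was higher and none was lower. That cut is looser, and the 12.3% does not apply to it. Dnase1l1, a relative of Dnase1, was at 7.12 against 4.10 FPKM at q = 0.636, and Dnase1l2 at 1.19 against 1.05 FPKM at q = 0.944, by the authors' deposited table. Dnase1l3, which digests DNA in chromatin particles, was at 0.0432 against 0.0991 FPKM, Trex2 at 0.0734 against 0.577 FPKM, and Dnase2b was listed at 0 in both conditions by the authors' deposited table, and none of these was tested. Pld3 and Pld4, exonucleases of the endolysosome, were at 3.75 against 4.14 FPKM and at 0.253 against 1.17 FPKM, with q-values of 0.969 and 0.286 by the authors' deposited table. In con, Dnase1 was the most abundant DNase of these, and in TMX it was below both Dnase1l1 and Dnase1l2.

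Of 23 tested genes of RNases outside RNase H2 and of their cofactors, 2 rose (8.70%) and none fell by the authors' deposited table. Of all tested genes, 6.60% were called higher and 5.70% lower. The median log2 fold change of the 23 genes was 0.41. Isg20, an interferon-induced exonuclease of RNA, rose from 1.36 to 27.9 FPKM and Pnpt1, the mitochondrial polynucleotide phosphorylase, from 17.9 to 47.0 FPKM, both at q = 0.00112 by the authors' deposited table. Rnaseh1, which also cuts RNA paired with DNA, was at 4.28 against 4.70 FPKM at q = 0.938 by the authors' deposited table. Among 15 genes of ribonucleotide excision and R-loop removal none was called by the authors' q-value or had an unadjusted p under 0.05. Of the 15, 14 had a log2 fold change above 0 by the authors' deposited table, with a median of 0.32. Most of all tested genes also lay above 0, with a median of 0.05. The share called in either direction was 12.3% over all tested genes. A further list holds genes that supply the deoxynucleotide pool, which Samhd1 lowers, and some that break nucleotides down. Of its 20 tested genes, 2 rose (10%) and none fell by the authors' deposited table, beside 6.60% and 5.70% of all tested genes. Rrm2, the small subunit gene of ribonucleotide reductase, rose from 10.6 to 33.0 FPKM and Cmpk2, a mitochondrial nucleotide kinase gene, from 10.7 to 28.8 FPKM, both at q = 0.00112 by the authors' deposited table. The proliferation markers gave no call in 10 tested, with 2 higher and none lower at an unadjusted p under 0.05 by the authors' deposited table.

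Further genes linked to interferonopathies or to related syndromes were mostly higher in TMX where called. Of 23 tested in a list that also holds Tmem173, 8 rose (34.8%) and 1 fell (4.35%) by the authors' deposited table, with a median log2 fold change of 0.80. Of all tested genes, 6.60% were called higher and 5.70% lower. Usp18, Isg15 and Pnpt1, which are among the genes that rose, are also counted in the lists above. Isg15 rose from 15.9 to 151 FPKM at q = 0.00112, and the complement genes C1qa and C1qb, which macrophages make, rose from 0.583 to 10.0 FPKM and from 0.406 to 8.68 FPKM with q-values of 0.00355 and 0.00424, by the authors' deposited table. Ifih1, the gene of the RNA sensor MDA5, rose from 47.7 to 94.9 FPKM at q = 0.0282 by the authors' deposited table. Acp5, an acid phosphatase gene, fell from 18.4 to 8.17 FPKM at q = 0.0167 by the authors' deposited table. Several of these genes are themselves interferon-induced, and 6 of 12 myeloid markers were called in the same direction by the authors' deposited table, a part that was not tested.

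**Figure D4:**
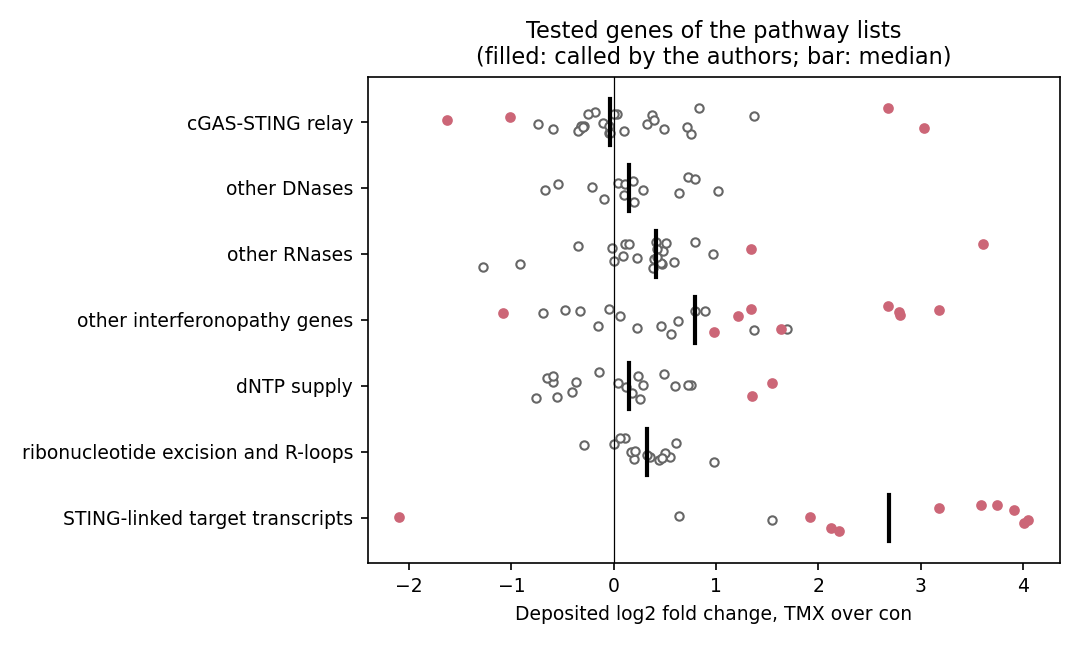
Deposited log2 fold change of TMX over con (log2 scale with 1 added to each FPKM) for the tested genes of 7 pathway lists, each point a gene (filled where called, jittered vertically) and each bar the list's median. The cGAS-STING relay, with a median of -0.04, and the other DNases, with 0.15, lie around 0, and the STING-linked targets have a median of 2.69.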

How the data were processed

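RNA of ileal crypts from 3 Adar fl/fl and 3 Adar iΔgut mice was sequenced. STAR and Cufflinks, with no version, and GRCm38 are named per the submitters' processing notes. The authors deposited 1 pooled FPKM per gene for con and for TMX, their log2 fold change (1 added to each value), p-value, q-value and test statistic, a score. Recomputed values matched the deposited fold change and the Benjamini-Hochberg q-value over tested genes. A test over libraries had been planned. With no value per library, the authors' calls (q under 0.05) were used, and no new test was made. Members and lists were chosen with earlier results of these data known.

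Named are the members, up to 3 called genes per list and direction with the largest fold change, genes whose role stands beside a member's, and the 3 genes nearest each called member. Other names in the text were chosen after their values were seen. They are genes overlapping a member, Exo1, Dnase1l1, Dnase1l2, Pld3, Pld4, S100a8, S100a9, Ptprc, Dclk1, Trpm5, Ifna4, Ifnl2, Ifnl3, Lyz1 and Slc10a2. Lists hold 256 entries. Exons and coordinates (1-based) came from GENCODE vM21, promoters from RefSeq. CDX-type (TTTATNG) and HNF4-type (CAAAGTNCA) letters were also searched, with 1 match, CDX-type, in Rnaseh2c. Depth is unknown. Adjustment was checked on simulated data. Scripts ran on numpy 2.4.6, matplotlib 3.10.9, pandas 2.3.3 and Python 3.11.15.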

Additional observations from a re-analysis of the deposited data

How the results depend on the processing

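No paired analysis was possible because the table holds no value per library, and for the same reason no replicate could be left out. The count of members called higher was 0 at a q under 0.01, 2 at a q under 0.1 (with Trex1) and 0 when adjusted over every listed gene. With Bonferroni adjustment over tested genes no gene can pass, since the smallest p-value in the authors' deposited table is 5e-05, so the counts for members and for the pathway genes were 0 higher and 0 lower. Dnase1 was called under every other alternative, and the number of pathway genes called, 20 higher and 4 lower of 128 tested, stayed within 1.5 times. Within the cGAS-STING relay, the count called higher went from 2 to 5 at a q under 0.1. Scaling each condition to its sum moved the median log2 fold change of tested genes by 0.20. Of the members' fold changes, that of Samhd1 alone changed sign, to -0.023, when centred on the median of tested genes. The pseudocounts 0.1 and 0.01 changed no sign.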

Other observations

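The order of the deposited test statistics was not that of the deposited p-values. Trex1 had a statistic of 1.91 and a p-value of 0.0117, whereas Dnase1 had a statistic of -1.45 and a p-value of 1e-04 by the authors' deposited table. Of 2173 tested genes with an absolute statistic at least as large as that of Dnase1, 518 were not called, and 205 of the 1940 called genes had a smaller one. The sources used here do not say how the p-values were made from the statistics.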
